A study of Mus musculus with 66 samples.

Results

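The genes described here encode the mouse enzymes that place or remove methyl groups on histone lysines and their close relatives. They were chosen by gene symbol, from the Kmt, Kdm, Setd, Setdb, Setmar, Ehmt, Suv39h, Nsd, Prdm, Smyd and Dot1l families. The pattern matched 67 symbols of 30084 in the table, and 7 of these (Kmt2c, Kmt2d, Kmt2e, Kdm6a, Kdm6b, Kdm5d and Setd5) were left out, which gave 60 members. Of the 60, 55 had enough counts to enter the test over 16145 genes. Their RNA was measured in neurons from wildtype e16.5 mice, grown separately for each sex. Cultures were given lentivirus that carries a short hairpin RNA (shRNA), through which cells degrade a matching mRNA, or were left with no virus. The shRNA was nontargeting or matched Tbr1, Setd5, Med13l, Mbd5, Kmt2c, Kdm6b, Dnmt3a, Chd8 or Ash1l. The virus was removed at culture day 6, and cells were lysed for RNA at culture day 10. Each of the 11 conditions had 3 male and 3 female libraries, 66 in all. All groups are of wildtype genotype, and the doses were set so that each target would fall to about 50% of its level, so these are partial knockdowns in wildtype cells. The labels speak of triplicates of wells and do not say whether the 3 libraries of a group came from separate cultures. The p-values therefore measure the spread between these libraries, which may be technical.

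Histone lysine methylation marks chromatin states. H3K4 methylation is found at active promoters and enhancers, H3K36 methylation over transcribed genes, and H3K9 and H4K20 methylation in compacted chromatin. SET domain proteins, among them the Kmt, Setd, Nsd, Ehmt, Suv39h and Smyd families, transfer the methyl group from S-adenosylmethionine, and Dot1l does so on H3K79 without a SET domain. Removal is carried out by the flavin-dependent Kdm1 enzymes and by Jumonji enzymes that use iron and 2-oxoglutarate, which are the other Kdm families. Many of these genes are linked to neurodevelopmental disorders, as are several of the shRNA targets, of which Ash1l is an H3K36 methyltransferase, Kmt2c an H3K4 methyltransferase and Kdm6b an H3K27 demethylase.

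Each shRNA lowered its target, to between 22.3% (Dnmt3a in males) and 54.3% (Setd5 in males) of its mean in nontargeting cultures of that sex. The Setd5 value included a library that went against its label, without which Setd5 stood at 30.8% in males and the highest of these values was 49.4% (Kdm6b in females). Levels are given as CPM (counts scaled to the library total) after TMM scaling, a per-library factor. The library labelled Setd5 shRNA male replicate 1 went against its label. It held 141 CPM of Setd5, beside 42.9 and 42.7 CPM in the other male Setd5 shRNA libraries and 133 to 149 CPM in the nontargeting males, while its Kdm6b level was 23.1 CPM. The library labelled Kdm6b shRNA male replicate 1 held 44.9 CPM of Setd5 and 39.9 CPM of Kdm6b, against 17.2 CPM of Kdm6b in each of the other male Kdm6b shRNA libraries. Without that library Kdm6b stood at 28.7% of nontargeting in males. Results for these shRNAs that moved without those libraries are given both ways. The library labelled Setd5 shRNA female replicate 1 held 18.7 CPM of the Y-linked gene Ddx3y, against at most 0.4 CPM in the other 32 female libraries and 55.2 to 114 CPM in males.

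The members spanned a wide range of levels in these neurons. Per kilobase of exon, the highest mean levels over the 66 libraries were those of Kdm1a (44.5 CPM per kilobase), an H3K4 demethylase of the CoREST complex, of Ehmt2 (41.2), which mono- and dimethylates H3K9, and of Kdm4b (37.4), which demethylates H3K9. In CPM, not corrected for length, Nsd2 (261 ± 33.4 CPM, SD over 66 libraries), Nsd1 (191 ± 30.0 CPM) and Kdm4b (171 ± 36.6 CPM) led. The 5 members under the filter on low counts were Prdm1 (at most 9 counts in any library), Prdm13 and Prdm14 (at most 10 counts each), Prdm6 (at most 2 counts, with a count in 2 libraries) and the pseudogene Setd9-ps (at most 3 counts). Among the 55 tested, Prdm12 and Kdm4dl had no count in some libraries (56 and 64 of 66 libraries with a count), and Prdm16os is an opposite-strand transcript of the Prdm16 locus. None of these 3 passed a test against the nontargeting shRNA.

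Knockdown of Med13l, a subunit of the Mediator kinase module, and of Chd8, a chromatin remodeller, changed the most members, followed by Ash1l. In each comparison the mean of the male and female differences from the nontargeting shRNA was tested (6 libraries against 6, edgeR quasi-likelihood test, adjusted over 16145 genes, threshold 0.05). After Med13l shRNA 21 of 55 members passed, 8 higher and 13 lower, where 24.1% of all genes passed, 11.8% higher and 12.3% lower. After Chd8 shRNA 15 passed, 10 higher and 5 lower, where 22.3% of all genes did, 9.85% higher and 12.5% lower. After Ash1l shRNA 6 passed, 3 in each direction, where 6.16% of all genes did, 2.67% higher and 3.49% lower. As shares of the members these were 38.2%, 27.3% and 10.9%, each above the share of all genes. At an unadjusted p under 0.05 the member shares were 45.5% after Med13l, 34.5% after Chd8 and 16.4% after Ash1l shRNA. The shares of all genes were then 35.6%, 32.8% and 17.7%, so the Chd8 share was near that of all genes and the Ash1l share was below it. The Med13l count fell to 12 without the library labelled Med13l shRNA female replicate 1 and to 13 without nontargeting shRNA female replicate 2.

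The other shRNAs changed few members. After Setd5 shRNA 4 passed, 1 higher and 3 lower, where 5.30% of all genes did, 1.83% higher and 3.46% lower, and with RLE in place of TMM scaling the 4 were 2 higher and 2 lower. With Dnmt3a, Kdm6b, Kmt2c and Mbd5 shRNA 1 member passed in each, where 1.40%, 0.966%, 0.694% and 0.663% of all genes did. After Tbr1 shRNA none of the 55 passed in edgeR or in DESeq2, where 1.33% of all genes did in edgeR, and 5 members (9.09%) had an unadjusted p under 0.05, as did 9.90% of all genes. Over the 9 comparisons 50 of 495 pairs of member and shRNA passed (10.1%, against 6.99% of all gene and shRNA pairs), 23 higher and 27 lower. The 9 comparisons share the same nontargeting libraries, so their values are set side by side and not counted as independent. The 50 differences had a median size of 0.50 on the log2 scale, and 7 were at least 2-fold.

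**Figure D1:**
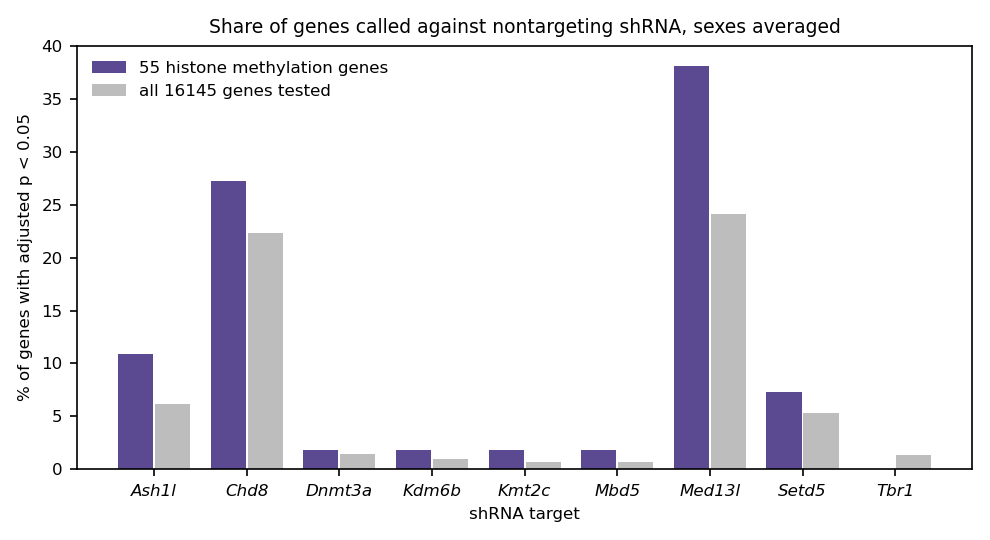
Share of genes that passed the test against nontargeting shRNA (y axis, % of genes) for each shRNA target (x axis), for the 55 histone methylation genes (purple) and for all 16145 genes tested (grey). The Med13l and Chd8 bars are the tallest in both sets, at 38.2% and 27.3% of the 55 genes.

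With replicate number within sex as a block, 5 counts for shRNAs whose numbers paired the libraries moved by more than 1.5 times. They were 3 for Dnmt3a (6.97% of all genes passed under the same block), 3 for Kmt2c (2.97%), 2 for Mbd5 (3.32%), 10 for Setd5 (16.2%) and 2 for Tbr1 shRNA (Prdm15 and Smyd3, both lower; 6.57%). The block raised the count over all genes as well. All 50 calls were kept under the block. The calls were spread unevenly over the members: 33 passed for at least 1 shRNA, 23 of these for 1 only, and 22 for none. Kmt5a passed for 5 shRNAs, Setmar for 4, and Setd7 and Kdm1b for 3 each. The members that passed for none included Dot1l, the H3K79 methyltransferase, whose smallest p was after Ash1l shRNA (log2 difference -0.27, adjusted p = 0.448).

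**Figure D2:**
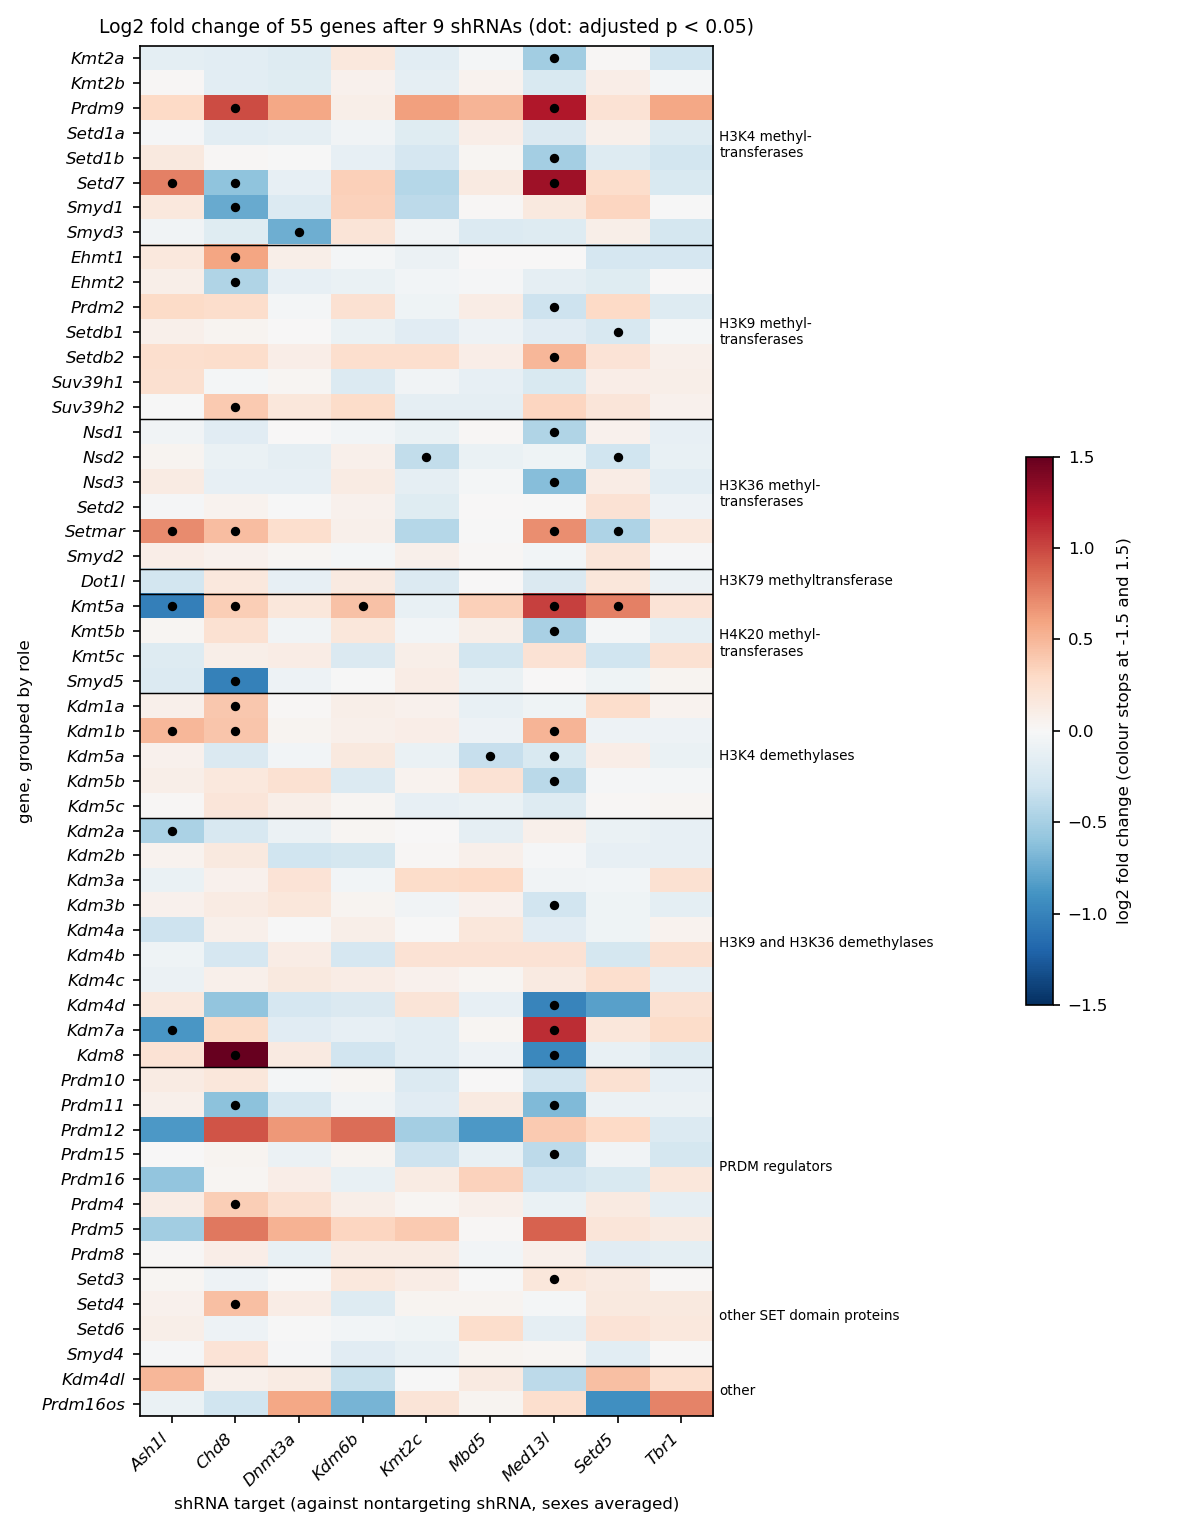
Log2 fold change against nontargeting shRNA, sexes averaged, for the 55 genes tested (rows, grouped by role) and the 9 shRNA targets (columns). Red is higher, blue is lower, and a dot marks an adjusted p under 0.05; Kmt5a carries dots in 5 columns, and the dots gather in the Chd8 and Med13l columns.

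Sequence upstream of the start is printed for Kmt5a, Setd7, Kdm8 and Smyd5 because they had the smallest adjusted p-values after Chd8 shRNA (Smyd5 and Kdm8) and after Med13l shRNA (Kmt5a and Setd7). Each window holds the 250 bases before the RefSeq start (GRCm38.p6) on the gene's strand: chr5:124439680-124439929 (plus strand) for Kmt5a, chr3:51560824-51561073 (minus strand) for Setd7, chr7:125444370-125444619 (plus strand) for Kdm8 and chr6:85431726-85431975 (plus strand) for Smyd5. Capitals mark matches, on either strand, to CCAAT (the CCAAT box) or GGGCGG (the GC box).
Kmt5a: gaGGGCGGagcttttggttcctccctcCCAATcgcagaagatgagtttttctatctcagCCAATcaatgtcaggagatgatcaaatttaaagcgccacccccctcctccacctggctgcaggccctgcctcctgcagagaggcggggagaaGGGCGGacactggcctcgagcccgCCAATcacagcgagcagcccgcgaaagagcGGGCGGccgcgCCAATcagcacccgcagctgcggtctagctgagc
Setd7: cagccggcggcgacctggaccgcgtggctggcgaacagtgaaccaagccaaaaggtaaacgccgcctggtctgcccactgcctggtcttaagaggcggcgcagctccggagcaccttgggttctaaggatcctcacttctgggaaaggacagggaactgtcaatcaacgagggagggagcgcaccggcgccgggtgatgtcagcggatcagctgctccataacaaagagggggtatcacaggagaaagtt
Kdm8: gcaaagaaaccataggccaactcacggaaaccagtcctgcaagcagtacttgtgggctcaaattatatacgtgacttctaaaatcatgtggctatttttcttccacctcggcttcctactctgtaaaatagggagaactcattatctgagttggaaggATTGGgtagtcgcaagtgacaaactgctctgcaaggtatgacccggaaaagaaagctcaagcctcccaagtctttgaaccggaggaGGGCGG
Smyd5: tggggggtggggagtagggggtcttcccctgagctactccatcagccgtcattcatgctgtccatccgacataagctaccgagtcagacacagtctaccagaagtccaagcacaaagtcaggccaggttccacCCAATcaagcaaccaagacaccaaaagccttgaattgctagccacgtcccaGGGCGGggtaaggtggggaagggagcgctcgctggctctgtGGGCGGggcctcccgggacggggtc
The Kmt5a window held 4 CCAAT and 3 GC boxes, Kdm8 1 of each, Smyd5 1 and 2, and Setd7 none of either. No match overlapped another. A CCAAT box was present in 34.5% and a GC box in 32.96% of the windows of the same length before the starts of 27025 genes. Searches for CCGGAAG (an ETS motif, in 7.07% of windows) and TATAAA (in 13.0%) on both strands found no match in the 4 windows. The windows held 16, 17, 7 and 10 CpG dinucleotides in the order printed, where the median of all windows was 6.

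Kmt5a, the sole enzyme known for H4K20 monomethylation, moved in opposite directions after different knockdowns. The nontargeting libraries held 40.9, 42.2 and 45.3 CPM in males and 31.2, 44.0 and 41.3 CPM in females. After Ash1l shRNA the values were 22.05, 16.9 and 19.9 CPM in males and 15.2, 25.8 and 20.9 CPM in females. All 6 lay below every nontargeting library, and the level was 49.3% of nontargeting (log2 difference -1.02 ± 0.12, SE; adjusted p = 5.41e-09). After Med13l shRNA the values were 82.4, 77.1 and 82.3 CPM in males and 92.5, 83.0 and 82.5 CPM in females. All 6 were above every nontargeting library, 2.04-fold higher (log2 difference 1.03 ± 0.11, adjusted p = 1.08e-09).

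Kmt5a was also higher after Setd5 shRNA (0.75 ± 0.11 on the log2 scale, adjusted p = 3.43e-05), with 50.4, 63.3 and 80.2 CPM in males and 71.9, 71.7 and 74.8 CPM in females. Its lowest value was in the library that went against its label, and without that library the difference was 0.82. After Chd8 shRNA Kmt5a rose by 0.37 ± 0.11 (adjusted p = 0.0124), with 6 of 6 libraries above the nontargeting range, and by 0.31 without nontargeting shRNA female replicate 1 (adjusted p = 0.0600) and 0.28 with no virus as control (adjusted p = 0.0659), which ended the call. After Kdm6b shRNA it rose by 0.44 ± 0.11 (adjusted p = 0.0453), with 5 of 6 libraries above that range. This call was lost (0.39, adjusted p = 0.113) when Kdm6b shRNA male replicate 1, which went against its label, was left out, and for 8 of the other 11 libraries in turn (adjusted p at most 0.212). The median over 6 libraries was 43.7 CPM with no virus, close to the nontargeting median of 41.8 CPM, and between 37.9 CPM (Kmt2c) and 53.5 CPM (Mbd5) for the remaining shRNAs.

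Of the other H4K20 enzymes, Smyd5, reported to trimethylate H4K20, fell after Chd8 shRNA. The nontargeting libraries held 59.2, 66.8 and 65.2 CPM in males and 66.5, 70.3 and 71.1 CPM in females, and the Chd8 shRNA libraries 32.9, 34.4 and 29.9 CPM in males and 16.6, 42.5 and 41.0 CPM in females. The groups did not overlap (49.5% of nontargeting, log2 difference -1.01 ± 0.12, adjusted p = 5.06e-09), and Smyd5 passed for no other shRNA. Against the mean of the other 8 shRNAs the Smyd5 difference after Chd8 shRNA was -0.98 (adjusted p = 1.54e-11). Kmt5b, which dimethylates H4K20, fell by 0.48 on the log2 scale after Med13l shRNA (adjusted p = 0.00687). That call ended without nontargeting shRNA female replicate 2 (-0.37, adjusted p = 0.0626) or Med13l shRNA female replicate 1 (-0.38, adjusted p = 0.0561). Kmt5c, its trimethylating relative, passed for no shRNA.

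Of the 8 H3K4 methyltransferases tested, Setd7, which monomethylates H3K4 and also modifies non-histone proteins, changed most. The nontargeting libraries held 97.0, 82.4 and 108 CPM in males and 70.3, 120 and 84.1 CPM in females. After Med13l shRNA Setd7 stood at 252, 224 and 254 CPM in males and 179, 236 and 219 CPM in females, 2.42-fold higher with no overlap (log2 difference 1.28 ± 0.16, adjusted p = 1.22e-08). Setd7 rose after Ash1l shRNA as well, to between 139 and 186 CPM (0.76 ± 0.16, adjusted p = 0.000741; 6 of 6 libraries above the nontargeting range). It fell after Chd8 shRNA, to between 46.7 and 80.6 CPM (-0.61 ± 0.16, adjusted p = 0.0027; 5 of 6 libraries below that range).

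The remaining H3K4 methyltransferases gave smaller or sparser changes. Prdm9, which marks meiotic recombination sites, rose after Chd8 (0.98 ± 0.25, adjusted p = 0.00255) and Med13l shRNA (1.20 ± 0.25, adjusted p = 0.00029) from a median of 1.02 CPM to medians of 2.39 CPM in both. Its nontargeting range, 0.590 to 1.78 CPM, overlapped both the Chd8 (0.838 to 2.67 CPM) and the Med13l shRNA range (1.73 to 3.48 CPM). Smyd1, known from heart and skeletal muscle, fell after Chd8 shRNA (-0.76 ± 0.22, adjusted p = 0.00806) from a median of 1.80 CPM, a call that ended without Chd8 shRNA female replicate 1 (-0.59, adjusted p = 0.0530) and with only the libraries compared (adjusted p = 0.0535). The Prdm9 call after Chd8 shRNA ended with no virus as control (0.65, adjusted p = 0.0506). Kmt2a (-0.52 ± 0.15) and Setd1b (-0.51 ± 0.17), catalytic subunits of COMPASS-type complexes, fell after Med13l shRNA (adjusted p = 0.00809 and 0.0255). Both calls were lost without Med13l shRNA female replicate 1 or nontargeting shRNA female replicate 2 (adjusted p at most 0.0628 for Kmt2a and 0.113 for Setd1b), and that of Setd1b also without Med13l shRNA female replicate 3, Med13l shRNA male replicate 1 or nontargeting shRNA male replicate 3.

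Smyd3, assigned to H3K4 and also to non-histone targets, was the single member that passed after shRNA against Dnmt3a, the de novo DNA methyltransferase. Its values were 35.6, 33.1 and 37.2 CPM in nontargeting males and 34.9, 43.8 and 32.8 CPM in nontargeting females. After Dnmt3a shRNA they were 21.1, 22.5 and 20.9 CPM in males and 14.6, 31.3 and 20.4 CPM in females. All 6 lay below the nontargeting range, where 1.72% of all genes had no overlap after Dnmt3a shRNA. Smyd3 stood at 60.3% of the nontargeting level (-0.73 ± 0.12, adjusted p = 0.000177). Against the mean of the other 8 shRNAs the difference was -0.65 (adjusted p = 4.24e-06), and the call was lost when only the libraries compared were fitted (-0.73, adjusted p = 0.0728).

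**Figure D3:**
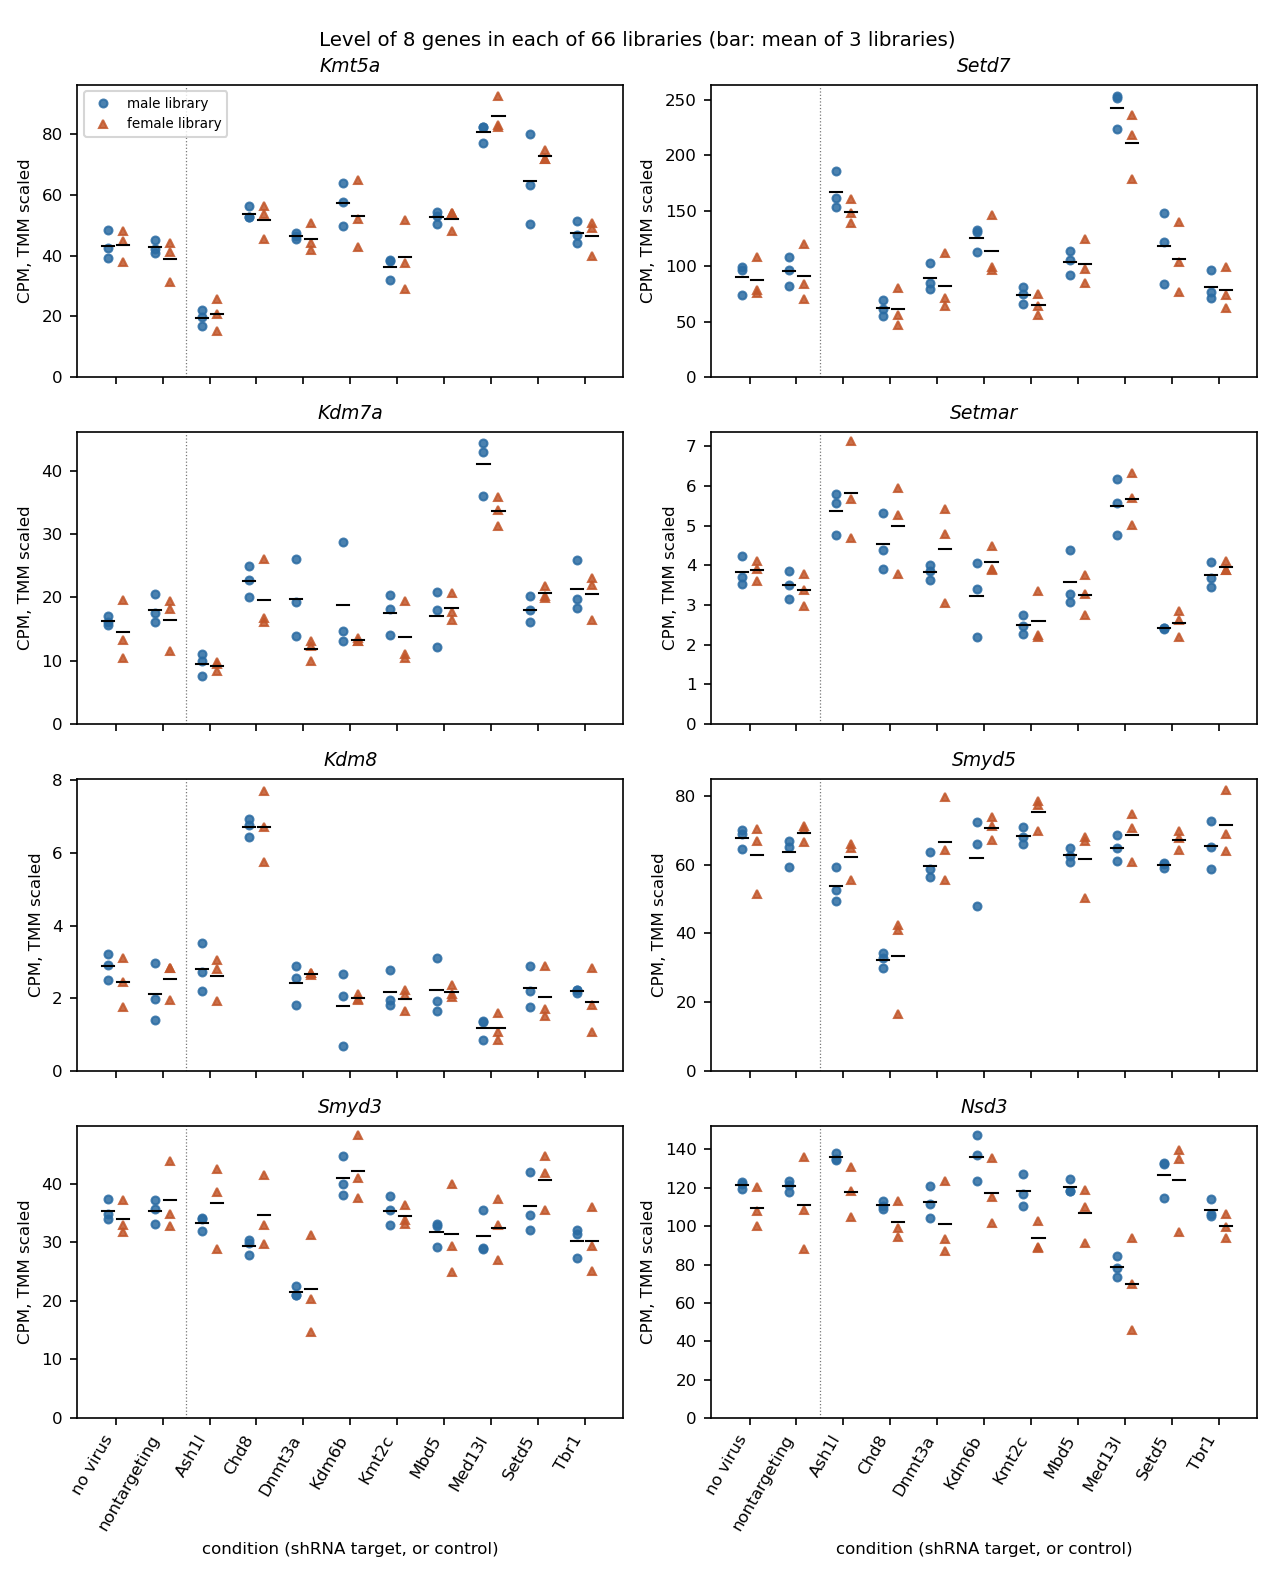
TMM-scaled CPM (y axes, from 0) of 8 genes in each library, by condition (x axis), with males as blue circles, females as orange triangles and bars at the mean of 3 libraries. Kmt5a was lowest after Ash1l and highest after Med13l shRNA, Setd7 and Kdm7a were highest after Med13l shRNA, Kdm8 was highest and Smyd5 lowest after Chd8 shRNA, and Smyd3 was lowest after Dnmt3a shRNA.

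Among 7 H3K9 methyltransferases, the partners Ehmt1 and Ehmt2, which act as a heterodimer, moved in opposite directions after Chd8 shRNA. Ehmt1 ranged from 47.4 to 65.3 CPM (median 52.2) in the nontargeting libraries and from 68.2 to 95.6 CPM (median 79.8) after Chd8 shRNA, a rise of 0.59 ± 0.11 (adjusted p = 4.29e-05). Ehmt2 ranged from 156 to 195 CPM (median 184) and from 90.0 to 149 CPM (median 138), a fall of 0.45 on the log2 scale (SE 0.11, adjusted p = 0.00131). In neither gene did the 2 groups overlap, as in 12.4% of all genes after Chd8 shRNA. Suv39h2, which trimethylates H3K9, rose by 0.39 after Chd8 shRNA (adjusted p = 0.0414), a call lost when any of 8 of the 12 libraries was left out (adjusted p at most 0.21).

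Setdb1, another H3K9 trimethylase, fell after Setd5 shRNA (-0.24 ± 0.07, adjusted p = 0.0364), from a median of 77.0 to 64.4 CPM, and to -0.29 without the library that went against its label (adjusted p = 0.00660). Leaving out 1 of 8 of the 12 libraries ended that call (adjusted p at most 0.144). After Med13l shRNA Setdb2 rose (0.50 ± 0.19, adjusted p = 0.0421) and Prdm2 fell (-0.31 ± 0.11, adjusted p = 0.0285). These calls ended when 1 of 8 and 1 of 5 of the 12 libraries was left out (adjusted p at most 0.144 and 0.209).

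Among 6 H3K36 methyltransferases, Setmar passed for 4 shRNAs at a level of a few CPM. Its nontargeting range was 2.98 to 3.85 CPM (median 3.44), and it rose to medians of 5.62 CPM after Ash1l (0.70 ± 0.14, adjusted p = 0.000514), 5.64 CPM after Med13l (0.70 ± 0.14, adjusted p = 0.000159) and 4.83 CPM after Chd8 shRNA (0.47 ± 0.14, adjusted p = 0.0112). The last call ended with no virus as control (0.30, adjusted p = 0.114). It fell to a median of 2.42 CPM after Setd5 shRNA (-0.47 ± 0.14, adjusted p = 0.0449), with 6 of 6 libraries below the nontargeting range. Without the Setd5 shRNA male library that went against its label the Setmar difference was the same, -0.47, with an adjusted p of 0.0579, and leaving out any of 10 of the 12 libraries ended this call (adjusted p at most 0.117).

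The 3 Nsd genes, which encode H3K36 dimethylases, were lower in several comparisons. Nsd3 fell after Med13l shRNA from a median of 120 CPM (88.1 to 136) to 76.0 CPM (45.8 to 94.1), a log2 difference of -0.64 ± 0.11 (adjusted p = 1.04e-05), with 5 of 6 libraries below the nontargeting range. Nsd1 fell in the same comparison from a median of 207 to 159 CPM (-0.46 ± 0.12, adjusted p = 0.00252). Nsd2 was the single member that passed after shRNA against Kmt2c, with 228, 241 and 239 CPM in males and 172, 197 and 224 CPM in females, against 283, 298 and 291 CPM and 237, 305 and 259 CPM in the nontargeting libraries. The difference was -0.37 ± 0.09 (adjusted p = 0.0349), 4 of 6 libraries lay below the nontargeting range, and leaving out 9 of the 12 libraries in turn ended the call (adjusted p at most 0.197).

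Nsd2 also passed after Setd5 shRNA (-0.29 ± 0.09, adjusted p = 0.0463), and lost that call when 1 of 9 of the 12 libraries was left out (adjusted p at most 0.198). The library labelled Setd5 shRNA male replicate 1 was the highest of the 6, at 311 CPM, where the others held 193 to 251 CPM. Without it the Nsd2 difference was -0.41 (adjusted p = 0.0017). With both libraries that went against their labels left out, 6 members passed after Setd5 shRNA (2 higher, 4 lower), and without Setd5 shRNA male replicate 1 alone 3 did. The Setd5 count was 1 when any of the 3 male nontargeting libraries was left out, 2 without nontargeting shRNA female replicate 3, Setd5 shRNA female replicate 1 or Setd5 shRNA male replicate 2 or 3, and 6 without Setd5 shRNA female replicate 2. Kmt5a kept its call in each of these.

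The H3K4 demethylases include the flavin enzymes Kdm1a and Kdm1b and the Jumonji enzymes Kdm5a, Kdm5b and Kdm5c. Kdm1b rose after Ash1l (0.50 ± 0.10, adjusted p = 0.00061), Chd8 (0.42 ± 0.10, adjusted p = 0.00144) and Med13l shRNA (0.51 ± 0.10, adjusted p = 0.000114). Its nontargeting libraries lay between 28.0 and 30.7 CPM, and the 18 libraries of these 3 shRNAs between 32.6 and 49.5 CPM, with no overlap. A no virus library, female replicate 1, held 38.0 CPM, within the range of those 18. Kdm1a rose after Chd8 shRNA from a median of 129 to 170 CPM (0.40 ± 0.09, adjusted p = 0.000585), again with no overlap.

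Kdm5a was the single member that passed after shRNA against Mbd5, a methyl-CpG-binding domain protein. The nontargeting libraries held 48.9, 48.3 and 54.8 CPM in males and 44.2, 53.5 and 46.0 CPM in females. After Mbd5 shRNA the values were 38.4, 38.8 and 43.8 CPM and 36.02, 40.7 and 35.0 CPM. The 2 groups did not overlap (-0.35 ± 0.09, adjusted p = 0.0337), as in 1.31% of all genes after Mbd5 shRNA. Leaving out 7 of the 12 libraries in turn ended the call (adjusted p at most 0.172). The Chd8 shRNA libraries, for which Kdm5a did not pass, also lay below the nontargeting range, at 40.1 to 44.1 CPM. Kdm5a (-0.23 ± 0.09, adjusted p = 0.0409) and Kdm5b (-0.40 ± 0.14, adjusted p = 0.0335) fell after Med13l shRNA, calls that ended when 1 of 8 and 1 of 5 of the 12 libraries was left out (adjusted p at most 0.238 and 0.191). The X-linked gene Kdm5c passed for no shRNA.

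Of the 10 demethylases assigned to H3K9 or H3K36, Kdm8, a Jumonji protein reported to act on H3K36, showed the largest called change of any member. It stood at 1.41, 1.97 and 2.97 CPM in nontargeting males and 2.83, 2.83 and 1.94 CPM in females. After Chd8 shRNA it stood at 6.44, 6.94 and 6.76 CPM in males and 7.69, 5.75 and 6.72 CPM in females, 2.89-fold higher (1.53 ± 0.23, adjusted p = 6.37e-07). The highest value among the 54 libraries of the remaining conditions other than nontargeting was 3.51 CPM, in the Ash1l shRNA group. After Med13l shRNA Kdm8 was lower, between 0.848 and 1.60 CPM (-0.97 ± 0.23, adjusted p = 0.00162), with 5 of 6 libraries below the nontargeting range.

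Kdm7a, which demethylates H3K9 and H3K27, fell after Ash1l and rose after Med13l shRNA. The nontargeting libraries ranged from 11.5 to 20.6 CPM (median 17.9). Ash1l shRNA libraries ranged from 7.52 to 11.1 CPM (median 9.67; -0.88 ± 0.17, adjusted p = 0.000426) and Med13l shRNA libraries from 31.2 to 44.3 CPM (median 35.9; 1.11 ± 0.17, adjusted p = 1.94e-06). Neither group overlapped the nontargeting libraries. Groups without overlap were found for 4.53% of all genes after Ash1l shRNA (5 of 55 members). After Med13l shRNA they were found for 10.23% of all genes (6 of 55 members). The no virus libraries, at 10.47 to 19.65 CPM of Kdm7a, overlapped the Ash1l shRNA range. Kdm2a, an H3K36 demethylase, fell after Ash1l shRNA (-0.48 ± 0.11, adjusted p = 0.0024), with 5 of 6 libraries below the nontargeting range. Kdm4d (to 50.1% of nontargeting, adjusted p = 0.00352) and Kdm3b (-0.29 ± 0.10, adjusted p = 0.0254) fell after Med13l shRNA, the former from a median of 1.76 CPM, the latter in a call that ended when 1 of 6 of the 12 libraries was left out (adjusted p at most 0.206).

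Of the 8 PRDM genes outside the enzyme lists, most of which encode zinc finger regulators without known methyltransferase activity, Prdm11 fell after Chd8 (-0.62 ± 0.15, adjusted p = 0.00171) and Med13l shRNA (-0.66 ± 0.15, adjusted p = 0.00082). Its nontargeting range, 19.0 to 33.7 CPM, overlapped both groups. Prdm15 fell after Med13l shRNA (-0.39 ± 0.10, adjusted p = 0.00372) and Prdm4 rose after Chd8 shRNA (0.37 ± 0.11, adjusted p = 0.00651), both with no overlap. After Tbr1 shRNA Prdm15 had the smallest p of the members, with 21.6, 19.5 and 17.99 CPM in males and 13.3, 19.8 and 19.5 CPM in females, against 23.7, 21.7 and 23.2 CPM and 20.03, 24.2 and 20.5 CPM in the nontargeting libraries. The ranges overlapped, and the difference of -0.26 did not pass in edgeR (adjusted p = 0.2999). Of 4 further SET domain proteins, Setd4 rose after Chd8 shRNA (0.45 ± 0.15, adjusted p = 0.0193) and Setd3, an actin histidine methyltransferase, after Med13l shRNA (0.17 ± 0.06, adjusted p = 0.0476). The Setd4 call ended without nontargeting shRNA female replicate 2 (adjusted p = 0.0731) or Chd8 shRNA female replicate 1 or 3, and the Setd3 call when 1 of 9 of the 12 libraries was left out (adjusted p at most 0.0928).

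The direction was the same in males and females for all 50 called pairs. These pairs were chosen on the mean of both sexes in the same libraries, which favours such agreement, so it is not separate support. Within males alone 15 member tests of 495 passed (3.03%, where 2.28% of all genes did over the 9 shRNAs), and within females alone 20 passed (4.04%, where 2.68% did). Of the 50 pairs, 9 passed in both sexes. In edgeR, no member passed a test of whether its male and female effects were unequal (0.00206% of all such gene tests passed), 1 of 495 had an unadjusted p under 0.05, and DESeq2 called none. With the replicate block the counts within a sex were 32 in males, where 7.01% of all gene tests passed, and 58 in females, where 7.80% did. The male count fell to 9 without nontargeting shRNA male replicate 2. Prdm9 had the largest distance between the sexes, 1.51 in females and 0.45 in males after Chd8 shRNA (adjusted p for the difference 0.99998).

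**Figure D4:**
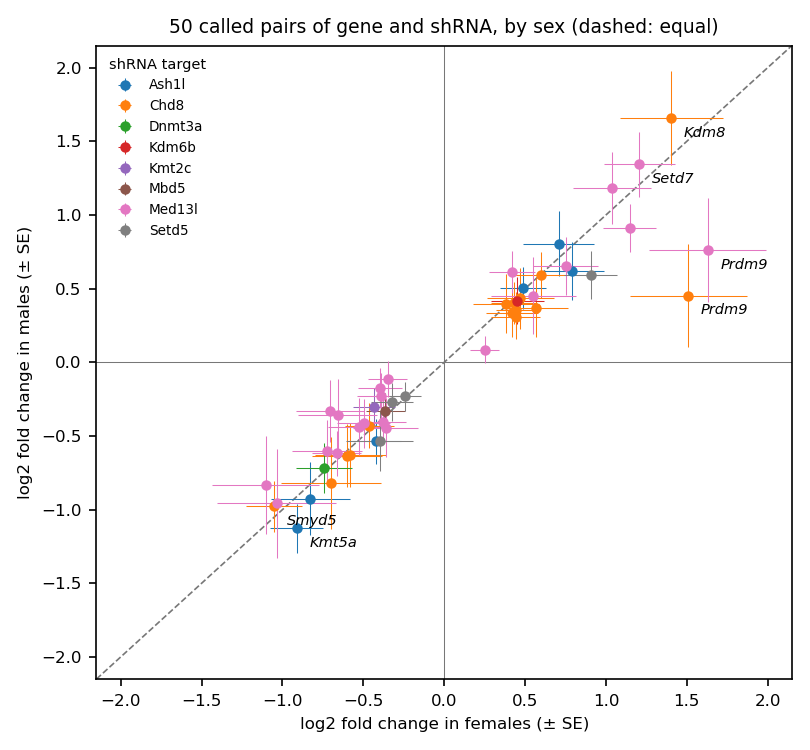
Log2 fold change in males (y axis) against that in females (x axis), each ± SE, for the 50 called pairs of gene and shRNA, coloured by target. Each value compares 3 with 3 libraries. The SE comes from the model of all 66 libraries, so it is not the spread of those libraries alone. All points lie in the lower left or upper right, which choosing pairs on the mean of both sexes favours. The 2 Prdm9 points lie below the dashed line of equality.

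Each shRNA was also compared with the mean of the other 8. Passing this test does not make a change particular to a single shRNA. Kdm1b, for example, passed it after Ash1l, Chd8 and Med13l shRNA alike. In this test 97 member tests of 495 passed (19.6%), where 14.9% of all gene tests did, and 169 with the replicate block, where 28.2% did. Of the 50 pairs called against the nontargeting shRNA, 47 passed this test too, which reuses their shRNA libraries and so is not separate support. The 3 that did not were Kmt5a after Chd8 shRNA (adjusted p = 0.183), Kmt5a after Kdm6b shRNA (adjusted p = 0.0917) and Setdb2 after Med13l shRNA (adjusted p = 0.0686). The largest such differences were those of Kdm8 after Chd8 (1.71), Kmt5a after Ash1l (-1.42), Setd7 after Med13l (1.26) and Kdm7a after Med13l shRNA (1.18).

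Infection was examined by itself. Between the nontargeting shRNA and no virus, no member passed in edgeR or DESeq2 (0.00% of all genes passed in edgeR), and none had an unadjusted p under 0.05, as 113 of all genes did.

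Members called between males and females depended on what was taken as a replicate. With 33 male and 33 female libraries, 23 of 55 members passed (41.8%, where 25.5% of all genes did), 19 higher in males (12.2% of all genes) and 4 lower (13.2% of all genes). The largest were Setd1b (0.42 ± 0.07, male mean 37.9 and female mean 28.4 CPM, adjusted p = 4.29e-05), Kmt2a (0.30 ± 0.06, adjusted p = 0.000436), Prdm16, Kdm4b (0.27), Kmt2b (0.26), Nsd1, Kdm7a, Prdm11, Kdm2b, Dot1l, Prdm10, Nsd3, Setd1a, Ehmt2, Setd2, Kdm5a, Prdm15, Kdm3b and Nsd2 (0.13), all higher in males. Kdm5c (-0.18), Smyd2 (-0.16), Setd6 (-0.15) and Setd3 (-0.08) were lower in males. Setd1b was higher in males in 11 of 11 conditions, and Kdm5c in 2 of 11. The Dot1l call (0.19, adjusted p = 0.0482) ended when any of 46 of the 66 libraries was left out and with RLE factors (adjusted p = 0.0560), and the difference was 0.39 without female number 2. The Kdm7a call ended for 16 libraries and those of Kdm5c and Setd3 for 3 each.

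Libraries of 1 sex with the same replicate number moved together, so the 11 libraries of a number are not separate observations of a sex. Averaged over the 11 conditions, Setd1b stood at 35.3, 33.9 and 44.6 CPM in the 3 male numbers and at 25.4, 34.0 and 25.9 CPM in the 3 female numbers, so the sexes overlapped. Kdm5c stood at 99.3, 94.6 and 104 CPM in males and 91.2, 138 and 109 CPM in females, the female number 2 being the highest. Without the 11 female libraries of number 2 the Kdm5c difference was -0.01 (adjusted p = 0.956), Smyd2 and Kdm7a lost their calls (adjusted p = 0.0512 and 0.103), and 32 members passed in all. The 3 male and 3 female numbers did not overlap in 7 of 55 members (12.7%, where 10.1% of all genes did not), a share near the background. Of the 7, 5 were among the 23 (Kdm2b, Kmt2a, Nsd2 and Prdm10 higher in males, Setd6 lower). With the counts summed over the 11 conditions for each sex and number, no member passed in edgeR (smallest adjusted p = 0.998, DESeq2 not run on the sums). In that edgeR model 4 of all genes passed, and 2 members had an unadjusted p under 0.05 (Kmt2a, 0.0390, and Setd1b, 0.0415), 3.64% of the members where 3.57% of all genes did. Sex and any separate handling of male and female cultures cannot be told apart. Without the library labelled Setd5 shRNA female replicate 1, 22 members passed.

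**Figure D5:**
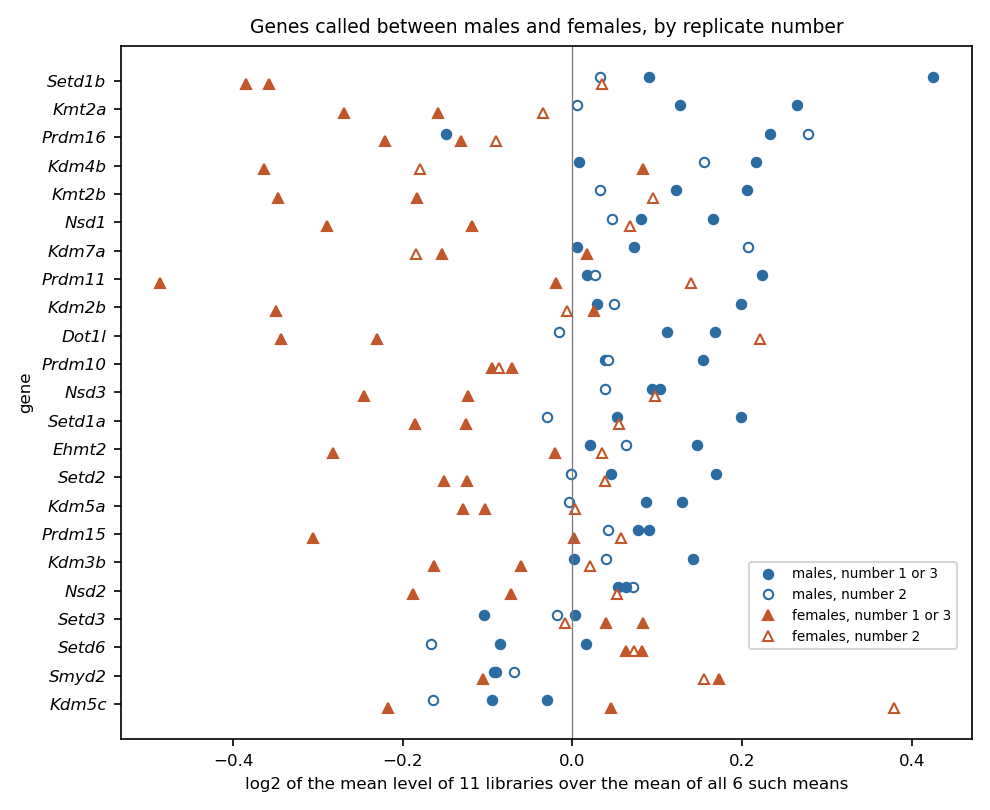
Mean level over 11 conditions for each sex and replicate number, as log2 over the mean of the 6 such values (x axis), for the 23 genes called between males and females over 66 libraries (y axis). Blue circles are males, orange triangles females and open symbols number 2; in 18 of the 23 genes the male and female symbols overlap.

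Partner proteins of these enzymes were described from lists of genes outside the symbol rule. Of all genes, 9.85% rose and 12.5% fell after Chd8 shRNA, and 11.8% rose and 12.3% fell after Med13l shRNA. After Ash1l shRNA 2.67% rose and 3.49% fell, and 1.40% passed after Dnmt3a and 1.33% after Tbr1 shRNA. Of 12 COMPASS subunits and partners, Rbbp5 rose after Ash1l (0.28) and Chd8 shRNA (0.48), Wdr5 rose (0.21) and Wdr82, a subunit of the Setd1 complexes, fell by 0.63 on the log2 scale after Chd8 shRNA. After Med13l shRNA Ash2l (0.29) and Dpy30 (0.71) rose and Hcfc1 (-0.44) and Ncoa6 (-1.18) fell. Of 9 partners of Kdm1a, 5 fell after Chd8 shRNA, including the CoREST scaffolds Rcor1 (-0.83) and Rcor3 (-0.86), while Kdm1a itself rose. Rcor1 rose after Dnmt3a shRNA (0.51) and fell after Med13l shRNA (-0.70), where Rcor2 rose (0.74).

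Of 9 partners of H3K9 methyltransferases and readers of the mark, Wiz, a zinc finger partner of Ehmt1 and Ehmt2, fell after Med13l shRNA (-1.92 ± 0.20, adjusted p = 3.09e-10), and Zfp644, which binds the same pair of enzymes, fell after Chd8 (-0.64) and Tbr1 shRNA (-0.47). Cbx5, which encodes the H3K9 methylation reader HP1 alpha, fell after Chd8 shRNA (-1.33 ± 0.10, adjusted p = 1.78e-15) and rose after Ash1l shRNA (0.31), as did Cbx1 (0.42). Of 11 lysine methylation enzymes with other names, 4 passed after Chd8 shRNA (1 higher, 3 lower) and 5 after Med13l shRNA (3 higher, 2 lower). Ezh2, the H3K27 methyltransferase of Polycomb complex PRC2, rose after Chd8 (1.09) and Med13l shRNA (0.61). Its paralog Ezh1 fell after Chd8 shRNA (-0.37), as did Hr and Mecom. Phf2, an H3K9 demethylase, fell after Med13l shRNA (-0.81), as did Jmjd1c, while Jmjd6 and Riox2 rose there. Riox2 fell after Setd5 shRNA, as 3.46% of all genes did.

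Markers of cell types moved with some of these comparisons. In bulk RNA fewer cells of a type and less RNA per cell cannot be told apart. All 10 neuron markers were present in every group, and their summed level was 6094 to 7050 CPM in nontargeting libraries. It was 5416 to 6135 CPM after Chd8 shRNA, where 5 of 10 fell and 1 rose (12.5% of all genes fell and 9.85% rose). With Med13l shRNA it was 4935 to 5840 CPM, where 2 fell (Gad1 and Syt1) and 1 rose (Neurod6; 12.3% and 11.8% of all genes). Syt1 and Gad1 are large parts of the sum, with means of 1000 and 663 CPM over the 66 libraries. The median log2 difference of the 10 markers after Med13l shRNA was -0.04, where that of all genes was -0.01. The lower sum there does not stand for most of the list. After Ash1l shRNA the neuron sum was 5798 to 6953 CPM. There Gad1 (-1.28, adjusted p = 1.68e-08) and Gad2 (-0.47), which make GABA, fell and Slc17a6, a glutamate transporter, rose (0.95), where 3.49% of all genes fell and 2.67% rose. Of the 8 markers of dividing cells, 1 fell after Ash1l shRNA (Top2a, mean 1.58 CPM over the 66 libraries) and 0 rose. Their sum there was 51.7 to 97.2 CPM, not below that of the nontargeting libraries (46.1 to 88.9 CPM). The 8 astrocyte and radial glia markers summed to 240 to 565 CPM in nontargeting libraries, 131 to 843 CPM after Chd8 shRNA (1 of 8 fell), 157 to 432 CPM after Med13l shRNA (2 fell), 248 to 870 CPM after Ash1l shRNA (none passed) and 249 to 1238 CPM after Dnmt3a shRNA, where Gfap rose. The 8 markers of dividing cells summed to 46.1 to 88.9 CPM in nontargeting libraries and 66.3 to 132 CPM after Med13l shRNA. There 2 rose (Pcna and Mcm2) and 4 fell (Mki67, Top2a, Cdk1 and Ccnb1). Pcna made up most of the sum, with a mean of 52.2 CPM over the 66 libraries. The 4 that fell had means of 0.463 to 1.58 CPM, so the higher sum does not stand for most of the list. After Setd5 shRNA 3 of 8 fell, where 3.46% of all genes did. In the nontargeting libraries the 5 microglia markers summed to 0.945 to 2.48 CPM and the 4 endothelial markers to 1.87 to 3.20 CPM. The part of cell composition in the results above was not tested.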

How the data were processed

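Poly(A) RNA of 66 libraries was sequenced. The authors deposited 1 table of raw read counts per gene, not normalized, with 48716 rows; STAR, featureCounts and mm10 are named in the submitters' processing notes, with versions not given in the sources used here. Low counts were mostly even (26.7% odd among values of 1 to 20, against 49.1% at 1000 or more), so halved counts were also tested. Libraries held between 13759741 and 66558546 counts, and counts near 0 carry the most counting error. Rows without a symbol (18483, with 0.69% to 1.41% of counts) and 6 columns of no sample used here were left out, and 149 repeated rows were summed.

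Groups came from the labels, and the nontargeting group was matched to the luciferase hairpin columns. One edgeR (4.0.16, R 4.3.3) quasi-likelihood model with TMM scaling, filterByExpr and 1 mean per group covered all libraries, with Benjamini-Hochberg adjustment over all genes tested. SE is the log2 difference divided by the root of F. Positions and exon lengths came from GENCODE vM21 (GRCm38), upstream sequences from RefSeq (GRCm38.p6). Replicates of a group differed by more than sampling noise (chi-square per gene of at least 7.92). Replicate numbers in the labels paired shRNA and nontargeting libraries (correlation of deviations over 0.1 for all 3 numbers) in 6 of 9 comparisons in males and 8 of 9 in females. Alternatives were DESeq2 (1.42.0), RLE factors, no filter, a replicate block, no virus as control, only the libraries compared, halved counts, and libraries left out. Leaving out female number 2 and summing by sex and number were chosen after the data were seen. Members named are those that passed, at most 12 per shRNA by p in full, all members called by sex, the 3 with the highest levels and the smallest p per role. Members and lists were chosen with earlier results of these data known.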

Additional observations from a re-analysis of the deposited data

How the results depend on the processing

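Of the 50 calls, DESeq2 and the replicate block kept 50 each, RLE factors and halved counts 49 each, 48 were kept with both libraries that went against their labels left out, 38 with no filter, 37 with no virus as control and 35 with only the libraries compared; none reversed. Of the 50, 31 held with every library left out in turn, and 18 ended in at least 1 other setting, 15 of which also ended when a single library was left out; the other 3 were Prdm9 and Setmar after Chd8 shRNA and Smyd3 after Dnmt3a shRNA. Counts of members called moved by more than 1.5 times as follows. With the replicate block they were 3 (Dnmt3a), 4 (Kdm6b), 3 (Kmt2c), 2 (Mbd5), 10 (Setd5) and 2 (Tbr1), 32 within males, 58 within females and 169 against the other 8 shRNAs; it ended no call. With only the libraries compared they were 0 for Dnmt3a, Kdm6b, Kmt2c and Mbd5, 1 for Setd5, 9 within males and 11 within females. With no filter they were 0 for Kdm6b, Kmt2c and Mbd5 and 1 for Setd5. DESeq2 called 7 for Setd5 and 33 within females. Kdm6b dropped to 0 with no virus as control and with both libraries that went against their labels left out. With 1 library left out the counts ranged from 6 to 8 (Ash1l), 12 to 16 (Chd8), 0 to 1 (Kdm6b, Kmt2c and Mbd5), 12 to 22 (Med13l), 1 to 6 (Setd5), 9 to 16 within males, 14 to 29 within females, 83 to 104 against the other 8 and 20 to 25 by sex. By sex, 0 members passed with the counts summed by sex and number; the block could not be fitted there, since numbers are nested in sex. The cause of these shifts was not tested. With counts halved the call that ended was Setmar after Setd5 shRNA (adjusted p = 0.0511); no other test of depth was made.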
